A study of Mus musculus with 9 samples.

Results

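The F-box and Cullin ligase genes were followed across wild-type, Dgcr8 knockout and Dicer knockout mouse eggs. A gene was included when a probe set of the array carried its symbol alone and that symbol began with Fbxo, Fbxl or Fbxw and a digit, or was Skp2, Cul1, Cul2, Cul3, Cul4a, Cul4b, Cul5, Rbx1 or Btrc. Fbxo5 was left out by this rule, and Skp1a was sought but is annotated as Skp1. The rule found 79 genes, on 83 probe sets, among 19938 genes on 35557 probe sets. Where a gene had several probe sets, the one brightest on average was used.

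The cells were C57BL/6 eggs arrested in metaphase II, as they are after ovulation and before sperm entry, with 3 arrays for each of the 3 genotypes. Ovulation was induced in all groups alike with PMSG at 7.5 IU and hCG at 7.5 IU, 2 gonadotropins, and the source labels place collection 16 h after the second injection. The eggs were freed of cumulus cells with hyaluronidase. The sources used here do not give how or in which cells the alleles were deleted, or the number of eggs and females behind an array, so p-values measure the spread between these samples, which the labels call biological replicates. Dgcr8 helps Drosha cut primary microRNA transcripts, and Dicer cuts microRNA precursors as well as the long double-stranded RNA that gives endogenous small interfering RNAs in mouse oocytes.

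Cullin-RING ligases attach ubiquitin to chosen proteins and so mark most of them for the proteasome. A cullin is the scaffold: its one end holds the RING subunit that recruits the ubiquitin-carrying enzyme, and its other end holds an adaptor and a receptor that binds the substrate. In the SCF type the scaffold is Cul1, the adaptor is Skp1 and the receptor is an F-box protein, named Fbxw, Fbxl or Fbxo after WD40 repeats, leucine-rich repeats or other domains. In eggs, the F-box protein Emi2, encoded by Fbxo43, inhibits the anaphase-promoting complex and keeps the metaphase II arrest until fertilization.

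Signals are deposited log2 values, and a change is a difference of log2 means. The targeted genes were checked first. The Dgcr8 probe set fell from 8.96 ± 0.099 in wild-type to 5.71 ± 0.26 in Dgcr8 knockout eggs, and the Dicer1 probe set from 11.67 ± 0.0061 in wild-type to 10.72 ± 0.13 in Dicer knockout eggs (mean ± SD, n = 3 each). Dgcr8 also read lower in Dicer knockout eggs, at 8.37, 8.28 and 8.72 against 8.85, 9.05 and 8.97 in wild-type. That change of -0.50 was not called (limma adjusted p = 0.0644). Dicer1 changed by 0.0093 in Dgcr8 knockout against wild-type eggs. The 14 measured oocyte markers had array medians of 11.63 to 12.11. In the Dicer comparison 2 of them rose by limma, Zp2 by 0.40 and Nobox by 0.24. That is 14.3% called beside 11.3% of all genes tested (4.87% higher). The groups did not overlap for 5 of the 14, all higher, or 35.7% beside 26.2% of all genes (10% higher). Among markers of other cells, none of 12 tested cumulus and granulosa genes was called in the Dicer comparison, by limma at an adjusted p under 0.05. Of these 12, 4 had an unadjusted p under 0.05, beside 23.7% of all genes. Their summed linear signal over 14 genes was 1216 to 1311 in wild-type, 1178 to 1426 in Dgcr8 knockout and 1009 to 1150 in Dicer knockout eggs. Of 8 oviduct markers 1 was called, beside 11.3% of all genes (6.47% lower), and this was Myh11, which fell by 0.46. The sum of the 8 oviduct markers was 1192 to 1247, 1228 to 1253 and 911 to 1028 in the same order. Of 7 immune and blood markers 1 rose, Cd68 by 0.96, or 14.3% beside the same 11.3%. Their sums were 225 to 273, 240 to 276 and 280 to 420. The Dicer knockout sums thus lay outside the range of the other groups in all these lists of other cells. A linear sum is carried mostly by its brightest genes. Nr5a2 had means of 9.80 in wild-type and 9.39 in Dicer knockout eggs, and Myh11 had 9.75 and 9.30. In the immune list, Lyz2 read 6.13 in Dicer knockout replicate 3 but 3.68 and 3.93 in replicates 1 and 2. The median changes of the cumulus, oviduct and immune lists were -0.041, -0.048 and 0.037, beside -0.027 over all genes tested. In wild-type eggs the cumulus genes Amh and Fshr had means of 4.95 and 5.07, Nr5a2 had a mean of 9.80, and Hsd3b1 was under the floor of 4. Whether any of these levels has a part in the results on ligase genes was not tested.

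Most of these genes were readily measured in eggs. A floor of 4 in at least 3 of 9 arrays was passed by 77 of the 79 genes, and Fbxo48 and Fbxl12os stayed below it, with wild-type means of 2.70 and 3.43. Fbxl12os matched by its symbol alone, and RefSeq lists it as a transcribed pseudogene and not as a coding F-box gene. The wild-type means of the 77 ranged from 3.95 to 11.68, and 41 of them were at 8 or above. Their median SD within a genotype was 0.076 in wild-type, 0.11 in Dgcr8 knockout and 0.12 in Dicer knockout eggs, against 0.084, 0.11 and 0.12 over all 17324 genes tested. In 36 of the 79 genes at least 2 arrays carried an identical deposited value, and 50.2% of all tested genes did so too.

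The first result concerns the group of Fbxw genes that sits side by side on chromosome 9, because the gene called higher in the Dicer comparison lies in it. RefSeq lists 15 Fbxw genes in a row there with 0 other protein-coding genes between them, and 8 had a probe set of their own, in the order Fbxw21, Fbxw13, Fbxw20, Fbxw22, Fbxw15, Fbxw24, Fbxw18 and Fbxw26. The 6 of these with a RefSeq promoter entry had nearly the same sequence before the start site. Over 250 bases upstream, the 15 pairs were 87.3% to 95.7% identical, with a median of 92.8%. The last 150 bases before each start are shown, 5′ to 3′ on the minus strand (RefSeq, GRCm38.p6), because they let the likeness of these copies be read beside the values that follow. Capitals mark the longest stretch, 18 bases, that all 6 share without a mismatch, and shorter shared stretches are left in lower case.
Fbxw21 (chr9:109162023-109162172): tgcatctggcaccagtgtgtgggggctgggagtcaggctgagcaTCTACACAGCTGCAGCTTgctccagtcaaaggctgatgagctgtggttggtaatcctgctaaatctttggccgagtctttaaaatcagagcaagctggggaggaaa
Fbxw20 (chr9:109234755-109234904): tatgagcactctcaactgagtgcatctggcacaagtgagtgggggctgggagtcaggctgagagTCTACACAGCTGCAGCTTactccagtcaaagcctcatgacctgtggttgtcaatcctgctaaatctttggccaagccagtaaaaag
Fbxw15 (chr9:109568263-109568412): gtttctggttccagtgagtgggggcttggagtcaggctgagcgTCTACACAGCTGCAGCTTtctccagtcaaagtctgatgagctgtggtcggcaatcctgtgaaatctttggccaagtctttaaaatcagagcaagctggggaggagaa
Fbxw24 (chr9:109626060-109626209): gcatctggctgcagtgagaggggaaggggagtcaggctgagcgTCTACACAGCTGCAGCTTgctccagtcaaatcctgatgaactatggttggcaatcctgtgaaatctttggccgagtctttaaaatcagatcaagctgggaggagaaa
Fbxw18 (chr9:109702701-109702850): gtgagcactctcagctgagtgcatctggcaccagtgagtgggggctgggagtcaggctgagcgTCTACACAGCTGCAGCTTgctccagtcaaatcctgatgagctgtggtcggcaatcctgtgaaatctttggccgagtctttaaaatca
Fbxw26 (chr9:109746090-109746239): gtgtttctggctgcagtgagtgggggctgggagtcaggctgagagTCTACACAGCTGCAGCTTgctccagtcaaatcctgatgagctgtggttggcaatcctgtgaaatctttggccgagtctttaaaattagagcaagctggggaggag
The shared run ends 68 to 89 bases before the start and occurs, on either strand, in 10 of 27025 promoter windows of the RefSeq table (0.037%), all 10 belonging to Fbxw genes of chromosome 9. It holds the letters CAGCTG, found in all 6 of these windows and in 12.8% of all windows. The letters TATAAA are in none of these 6 windows and in 3504 of all 27025. These matches describe the letters only.

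Fbxw21 (Entrez 320082), an F-box gene with WD40 repeats, stood at 11.12, 11.13 and 10.88 in the wild-type arrays, at 10.82, 10.92 and 11.05 in the Dgcr8 knockout arrays and at 11.56, 11.36 and 11.44 in the Dicer knockout arrays. All Dicer knockout values lay above all others. By limma it rose by 0.41 ± 0.082 (SE), or 1.33-fold, in Dicer knockout against wild-type eggs (adjusted p = 0.0101, n = 3 each). Against Dgcr8 knockout eggs, a comparison that shares the Dicer knockout arrays, the change was 0.52 (limma adjusted p = 0.00248). Both calls were kept in all 17 alternatives, with adjusted p up to 0.0440 against wild-type.

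The other 7 genes of the row with a probe set of their own were not called in any comparison. Fbxw20 stood at 11.12, 11.12 and 11.12 in wild-type and at 11.24, 11.15 and 10.98 in Dicer knockout eggs, a change of -0.0011. The changes of Fbxw13, Fbxw22, Fbxw15, Fbxw24, Fbxw18 and Fbxw26 in Dicer knockout against wild-type eggs were 0.08, 0.03, 0.10, 0.09, 0.03 and -0.05, and the groups overlapped for each. Fbxw24 had the values 11.34, 11.35 and 11.31 in wild-type and 11.51, 11.42 and 11.34 in Dicer knockout eggs. Whether Fbxw21 differs from its neighbours was not tested. Values of single copies are uncertain, since a probe set named for one gene may take up RNA of a similar copy. Only promoter sequences were compared here, not transcripts or probes. Further copies share probe sets, 1 for Fbxw14, Fbxw19, Fbxw22 and Fbxw28 (change 0.13) and 1 for Fbxw16 and Fbxw19 (change 0.17). Neither shared probe set was called when all probe sets entered the limma fit (adjusted p = 0.162 and 0.329).

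**Figure D1:**
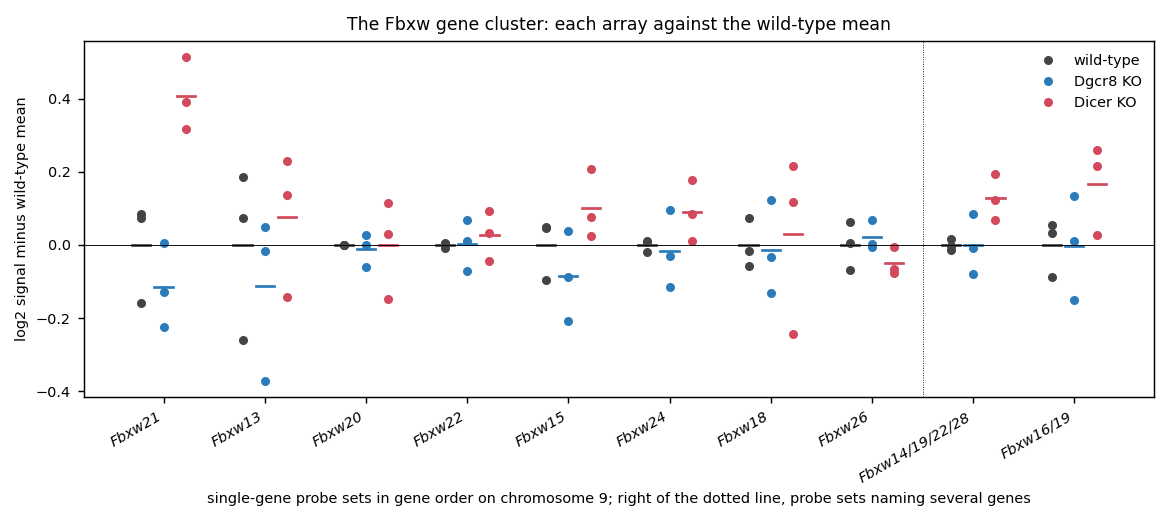
Log2 signal minus the wild-type mean on each of the 9 arrays (points) and the mean of each genotype (bars), for the 8 Fbxw genes of chromosome 9 with a probe set of their own, in gene order, and, right of the dotted line, for 2 probe sets that name several of these genes. Fbxw21 has all its Dicer knockout points above the other genotypes, with a mean change of 0.41, while the other 7 single-gene probe sets overlap between Dicer knockout and wild-type eggs.

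In Dicer knockout eggs as against wild-type eggs, ligase genes were called at about the share of all genes, and the called changes were under 2-fold. Of 77 tested genes 9 were called (limma, adjusted p under 0.05), 1 higher and 8 lower. The split was 3 higher and 4 lower with only these 2 groups in the fit, and 3 higher and 9 lower of 61 genes with a floor of 6. That is 11.7% beside a background of 11.3% over all genes tested (4.87% higher and 6.47% lower), and 22 had an unadjusted p under 0.05 beside 23.7% of all genes, so the number called is near the background. The genes that fell were the scaffolds Cul2 and Cul5, the receptor gene Skp2, and Fbxo15, Fbxo33, Fbxo36, Fbxo40 and Fbxo43. Among called genes the fold ranged from 0.587 to 1.33, and none reached 2-fold, beside a background of 2.07% called with at least 2-fold. The median change over the 77 genes was 0.0013, against -0.027 over all genes tested, with 39 changes above 0 and 38 below. A total of 59 genes changed by less than 0.25. The 3 values of each genotype did not overlap in 21 genes, 7 higher and 14 lower, or 27.3% beside 26.2% of all genes (10% higher and 16.1% lower). Leaving out wild-type replicate 1, 2 or 3 reduced the 9 calls to 5, 3 or 2, and leaving out Dicer knockout replicate 1 reduced them to 5. The 2 calls left without wild-type replicate 3 were Fbxo15 and Fbxw21. In bulk RNA, fewer eggs carrying a transcript and less of it per egg cannot be told apart.

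**Figure D2:**
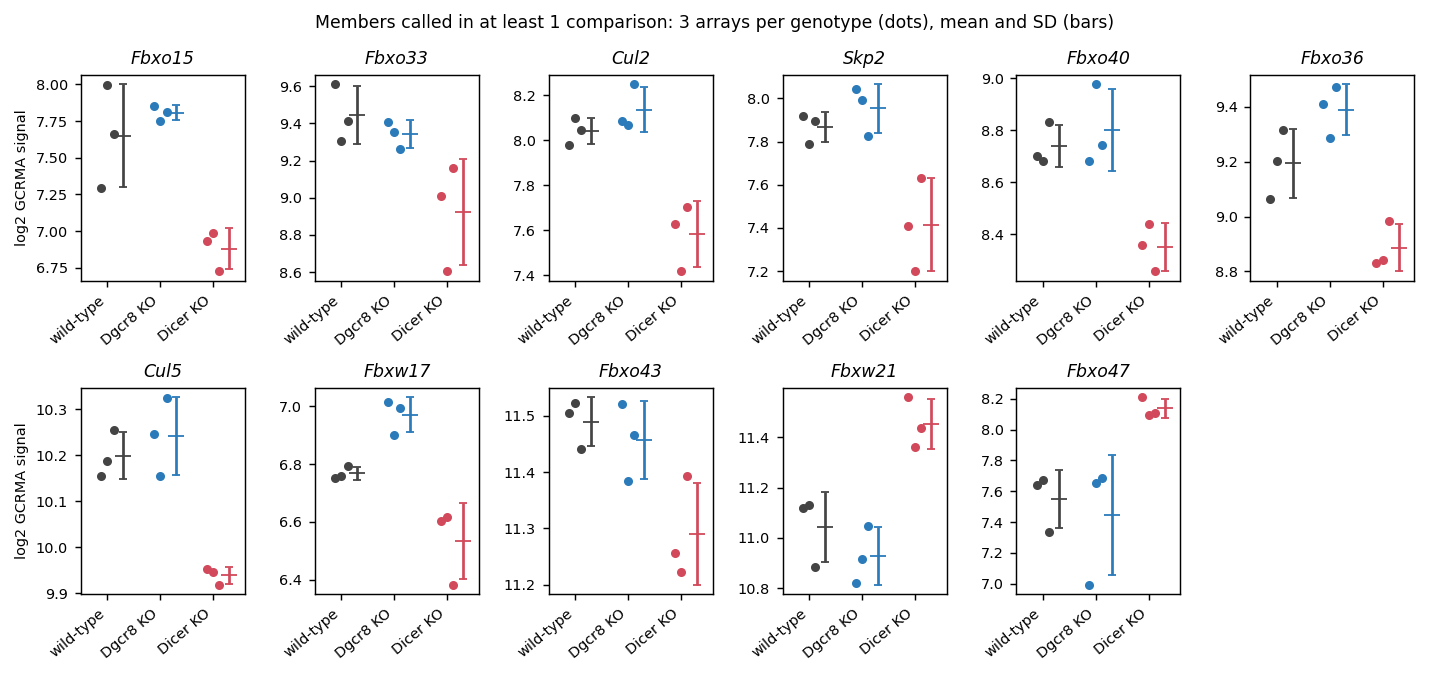
Deposited log2 signals on each of the 9 arrays for the 11 ligase genes called in at least 1 comparison, with the mean and SD of each genotype beside them. Dicer knockout points lie below the wild-type points in Fbxo15, Cul2, Cul5 and Skp2 and above them in Fbxw21 and Fbxo47.

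Of the 6 cullin scaffolds under the rule, 2 fell, or 33.3% beside 6.47% of all genes called lower. Cul7 and Cul9, outside the rule and read with the other pathway genes, were not called, with changes of 0.16 and 0.0068. Cul2 (Entrez 71745), the scaffold that works with elongins B and C and the von Hippel-Lindau receptor, measured 7.98, 8.10 and 8.04 in wild-type, 8.09, 8.07 and 8.25 in Dgcr8 knockout and 7.63, 7.42 and 7.70 in Dicer knockout eggs. The Dicer knockout values were the lowest 3 of the 9. The change against wild-type was -0.46 ± 0.099, a fold of 0.728 (limma adjusted p = 0.0145). Cul5 (Entrez 75717), the scaffold for receptors with a SOCS box, measured 10.15, 10.19 and 10.25 in wild-type, 10.25, 10.15 and 10.32 in Dgcr8 knockout and 9.95, 9.95 and 9.92 in Dicer knockout eggs. Again no Dicer knockout value reached the others. The change was -0.26 ± 0.056, a fold of 0.835 (limma adjusted p = 0.0150). Without wild-type replicate 2 or 3 neither call against wild-type held (limma adjusted p = 0.0608 and 0.0535 for Cul2, 0.0502 and 0.0695 for Cul5). The place of the Cul2 probe set could not be checked by its neighbours, of which 4 of 10 belong to the chromosome of the gene and 4 to chromosome 17.

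Cul1, the scaffold of the SCF ligases, measured 11.70, 11.64 and 11.69 in wild-type, 11.63, 11.59 and 11.75 in Dgcr8 knockout and 11.68, 11.49 and 11.64 in Dicer knockout eggs. The genotypes overlapped, and the change in Dicer knockout eggs was -0.08 with a 95% interval from -0.20 to 0.05 (limma adjusted p = 0.490). The other scaffolds were also not called: Cul3, which works with BTB-domain receptors, changed by -0.05, Cul4b by 0.07 and Cul4a by 0.17, the last 2 being scaffolds for Ddb1 and its receptors.

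The core partners of Cul1 gave no call. Rbx1, the RING subunit, read 10.76, 10.72 and 10.89 in wild-type, 10.92, 10.90 and 10.66 in Dgcr8 knockout and 10.87, 10.83 and 10.95 in Dicer knockout eggs, a change of 0.09 with a 95% interval from -0.07 to 0.26 (limma adjusted p = 0.550). The genotypes overlapped. This Rbx1 probe set needs care, because its neighbours in the order of probe sets belong to chromosome 17, where RefSeq lists the pseudogene Rbx1-ps, and the gene itself is on chromosome 15. A further Rbx1 probe set whose neighbours match the gene had a change of 0.08 (limma adjusted p = 0.606 with all probe sets in the fit). Skp1, the adaptor, stood at 11.15, 11.17 and 11.10 in wild-type, 11.04, 11.08 and 11.42 in Dgcr8 knockout and 11.35, 11.33 and 11.17 in Dicer knockout eggs, a change of 0.15 ± 0.091 (limma adjusted p = 0.402). It is counted among none of the 79 genes, since the older symbol Skp1a is only a synonym in the reference. Btrc, the receptor of beta-catenin and of Emi1, read 11.16, 11.20 and 11.16 in wild-type, 11.15, 11.14 and 11.16 in Dgcr8 knockout and 11.15, 11.15 and 11.16 in Dicer knockout eggs. The change of Btrc was -0.02, with a 95% interval from -0.09 to 0.05 (limma adjusted p = 0.815).

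Of 18 leucine-rich F-box genes 1 fell, or 5.56% beside 6.47% of all genes called lower. This was Skp2 (Entrez 27401), the receptor for the cell cycle inhibitor p27. It read 7.92, 7.79 and 7.90 in wild-type, 8.04, 7.99 and 7.83 in Dgcr8 knockout and 7.41, 7.20 and 7.63 in Dicer knockout eggs. All Dicer knockout values lay below the rest. The change was -0.45 ± 0.12, a fold of 0.730 (limma adjusted p = 0.0340). This call was lost in 8 of 17 alternatives, among them each omission of a wild-type replicate, of Dgcr8 knockout replicate 2 and of Dicer knockout replicate 1 or 2 (limma adjusted p from 0.0523 to 0.111). The other 17 leucine-rich genes ran from -0.25 for Fbxl19 to 0.47 for Fbxl13. Fbxl13 read 5.95, 6.10 and 6.06 in wild-type and 6.35, 6.54 and 6.62 in Dicer knockout eggs, without overlap, at a limma adjusted p of 0.0707.

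None of the 9 widely conserved Fbxw genes, Btrc among them, was called by limma in the Dicer comparison, beside 11.3% of all genes. Of the 9, 1 had an unadjusted p under 0.05, beside 23.7% of all genes. Fbxw4 read 8.28, 8.42 and 8.41 in wild-type and 7.82, 8.23 and 7.73 in Dicer knockout eggs, a change of -0.44 without overlap (limma adjusted p = 0.0550). Fbxw7, the receptor for cyclin E and Myc, had a change of 0.05, but the neighbours of its probe set lie on the strand opposite to the gene. The other Fbxw7 probe set, whose neighbours match, averaged 7.07 in wild-type and 6.96 in Dicer knockout eggs.

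Of the 34 tested genes with other domains, 5 fell and none rose, or 14.7% called beside 11.3% of all genes (4.87% higher and 6.47% lower). Fbxo43 (Entrez 78803), which encodes Emi2, stood at 11.51, 11.52 and 11.44 in wild-type, 11.52, 11.38 and 11.47 in Dgcr8 knockout and 11.26, 11.22 and 11.39 in Dicer knockout eggs. The Dicer knockout values lay below all wild-type values but overlapped with the Dgcr8 knockout values. The change was -0.20 ± 0.053, a fold of 0.871 (limma adjusted p = 0.0397). It was lost in 10 of 17 alternatives, among them each omission of a wild-type replicate, of Dgcr8 knockout replicate 3 and of Dicer knockout replicate 1 or 2 (limma adjusted p from 0.0602 to 0.134).

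Fbxo15 (Entrez 50764), known as a gene active in embryonic stem cells, had the largest change among called ligase genes. Its values were 7.29, 7.998 and 7.66 in wild-type, 7.85, 7.75 and 7.81 in Dgcr8 knockout and 6.93, 6.99 and 6.72 in Dicer knockout eggs. The wild-type arrays were the most spread, and the Dicer knockout arrays lay below all of them. The change was -0.77 ± 0.16, a fold of 0.587 (limma adjusted p = 0.0115), and it was kept in all 17 alternatives, with changes from -0.95 to -0.60.

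Fbxo33 read 9.61, 9.31 and 9.41 in wild-type, 9.41, 9.36 and 9.26 in Dgcr8 knockout and 9.01, 8.60 and 9.16 in Dicer knockout eggs, with the Dicer knockout arrays lowest. It fell by 0.52 on the log2 scale, a fold of 0.697 (limma adjusted p = 0.0334). The call of Fbxo33 was lost in 8 of 17 alternatives. Among them were leaving out wild-type 1 or 3, Dgcr8 knockout 2 or 3, or Dicer knockout 1 or 2 (limma adjusted p from 0.0505 to 0.124). The others were the fit of only the 2 groups compared and the fit of all probe sets. Fbxo40, best known from skeletal muscle, read 8.70, 8.68 and 8.83 in wild-type, 8.68, 8.98 and 8.74 in Dgcr8 knockout and 8.36, 8.44 and 8.26 in Dicer knockout eggs. No Dicer knockout value reached the other groups, and the fall of 0.39 (fold 0.764) had a limma adjusted p of 0.0281. It was lost without any of the wild-type replicates and without Dicer knockout replicate 1 or 3 (limma adjusted p up to 0.112). Fbxo36 read 9.06, 9.20 and 9.32 in wild-type, 9.41, 9.29 and 9.47 in Dgcr8 knockout and 8.83, 8.84 and 8.98 in Dicer knockout eggs. Its Dicer knockout arrays were the lowest, with a change of -0.31 ± 0.086 (limma adjusted p = 0.0460). This call was lost in 11 of 17 alternatives, among them on leaving out wild-type 2 or 3, any array of the Dgcr8 knockout, or Dicer knockout 1 or 2 (limma adjusted p from 0.0515 to 0.169).

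Fbxo47, an F-box gene of meiotic prophase, was not called against wild-type. It read 7.64, 7.67 and 7.33 in wild-type, 6.99, 7.66 and 7.69 in Dgcr8 knockout and 8.21, 8.10 and 8.11 in Dicer knockout eggs, so the Dicer knockout arrays lay above all others. The change was 0.59 ± 0.18 (limma adjusted p = 0.0618). Fbxo39, named after its values were seen because its change of 0.89 was the largest of all 77, read 5.94, 5.89 and 5.38 in wild-type and 5.70, 6.96 and 7.23 in Dicer knockout eggs. Dicer knockout replicate 1 lay within the wild-type range, and the limma adjusted p was 0.128. Fbxo30, likewise named afterwards, as a receptor known from oocyte meiosis, changed by 0.01 with a 95% interval from -0.12 to 0.14.

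**Figure D3:**
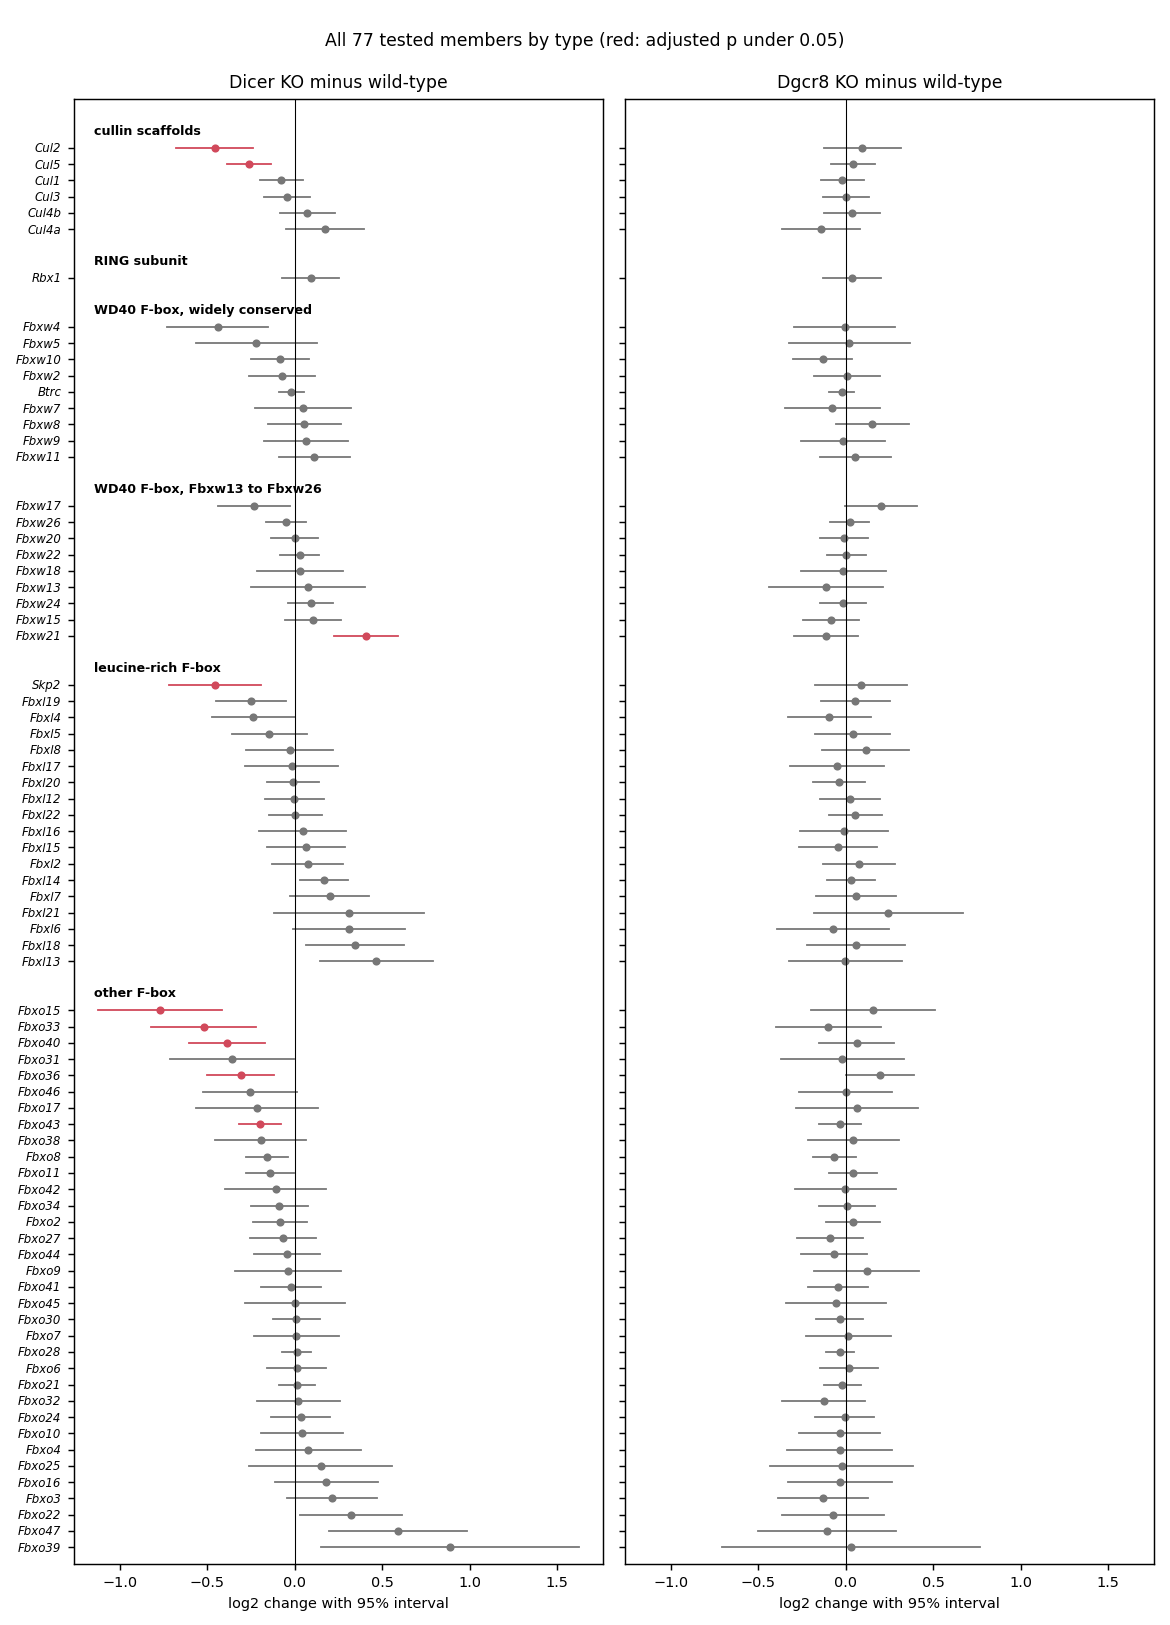
Log2 change with its 95% interval for all 77 tested ligase genes, grouped by type, in Dicer knockout (left) and Dgcr8 knockout (right) minus wild-type eggs, with called genes in red. The changes on the left run from -0.77 to 0.89 with 59 of 77 within 0.25 of 0, and all 77 on the right lie within 0.25 of 0.

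In Dgcr8 knockout against wild-type eggs no ligase gene was called by limma, beside a background of 0.0231% of all genes, and 1 of 77, Fbxo36, had an unadjusted p under 0.05 beside 2.64% of all genes. The change of Fbxo36 was 0.20 (limma adjusted p = 1). All 77 changes were under 0.25 in size, from -0.14 for Cul4a to 0.24 for Fbxl21, and the 95% interval of each lay within 1 of 0. The median change was -0.0053, against -0.0029 over all genes tested. The genotypes did not overlap in 5 genes, or 6.49% beside 6.54% of all genes. Fbxw17 was higher (background 3.52%), and Fbxo8, Fbxl20, Fbxo28 and Cul4a were lower (background 3.02%). Of the genes called in the Dicer comparison, Cul2, Cul5, Skp2, Fbxo43, Fbxo15 and Fbxw21 changed here by 0.09, 0.04, 0.09, -0.03, 0.16 and -0.12. These comparisons share the wild-type arrays.

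Between the knockouts, 9 of 77 ligase genes were called by limma in Dicer knockout minus Dgcr8 knockout eggs, 2 higher and 7 lower, or 11.7% beside a background of 13.4% (5.48% higher and 7.92% lower). This share is near the background, and the difference was not tested. Groups did not overlap in 19 genes, 8 higher and 11 lower, or 24.7% beside 26.1% of all genes (10.2% higher and 15.9% lower). The genes that fell were Fbxo15 (-0.93), Cul2 (-0.55), Skp2 (-0.54), Fbxo36 (-0.50), Fbxo40 (-0.45), Fbxw17 (-0.44) and Cul5 (-0.30), and those that rose were Fbxo47 (0.69) and Fbxw21 (0.52). The limma adjusted p was 0.00407 for Fbxo36, 0.00415 for Fbxo15, 0.00516 for Cul2 and 0.00638 for Cul5. Fbxo33 and Fbxo43, with changes of -0.42 and -0.17, were not called here (limma adjusted p = 0.0692 and 0.0704).

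Fbxw17, numbered among the Fbxw genes of the row but lying on chromosome 13, was called only in the comparison of the knockouts. Its sequence was not compared with theirs. It read 6.75, 6.76 and 6.79 in wild-type, 7.02, 6.90 and 6.996 in Dgcr8 knockout and 6.60, 6.62 and 6.38 in Dicer knockout eggs. Every Dgcr8 knockout value lay above and every Dicer knockout value below the wild-type values. The change between the knockouts was -0.44 ± 0.092 (limma adjusted p = 0.0115), and those against wild-type were 0.20 and -0.23 (adjusted p = 1 and 0.150). The call of Fbxo47 was lost in 4 of 17 alternatives, among them each omission of a Dicer knockout replicate (limma adjusted p from 0.0529 to 0.0877). That of Skp2 was lost without Dgcr8 knockout replicate 1 (limma adjusted p = 0.0565).

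The other genes of the cullin pathway were read from a list of 51 tested genes for further parts and regulators of the ligases. Among them are the scaffolds Cul7 and Cul9 and receptors such as Vhl and Keap1. In the Dicer comparison 10 were called by limma, 6 higher and 4 lower, or 19.6% beside the background of 11.3%, with a median change of 0.0027. Ube2r2, a ubiquitin-conjugating enzyme that serves SCF ligases, read 6.92, 7.01 and 6.97 in wild-type, 7.002, 7.25 and 7.13 in Dgcr8 knockout and 8.64, 8.36 and 8.49 in Dicer knockout eggs. It rose by 1.53 ± 0.10, a fold of 2.89 (limma adjusted p = 1.16e-05), with no overlap. Arih2, a ubiquitin ligase that works with neddylated Cul5, read 8.16, 7.83 and 8.10 in wild-type, 8.46, 8.24 and 8.46 in Dgcr8 knockout and 9.30, 9.34 and 9.33 in Dicer knockout eggs. It rose by 1.30 (limma adjusted p = 3.45e-05), and its Dgcr8 knockout arrays, also above the wild-type ones, gave a change of 0.36 (adjusted p = 1). Nedd8, the ubiquitin-like protein that activates cullins, read 10.73, 10.73 and 10.35 in wild-type and 11.57, 11.52 and 11.34 in Dicer knockout eggs. The Nedd8 groups did not overlap, and the rise was 0.88 ± 0.12 (limma adjusted p = 0.00106). Elob, the elongin B adaptor of Cul2 and Cul5, rose by 0.54 (limma adjusted p = 0.00548), while Uba3, the catalytic subunit of the Nedd8-activating enzyme, fell by 0.38 (limma adjusted p = 0.0102). In the comparison of the knockouts 15 of the 51 were called by limma, 9 higher and 6 lower, or 29.4% beside 13.4%. In the Dgcr8 comparison none was called by limma beside 0.0231%, with 2 at an unadjusted p under 0.05 beside 2.64% of all genes. No test of the list as a whole was made, and the place of its probe sets, that of Elob among them, was not checked by their neighbours.

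**Figure D4:**
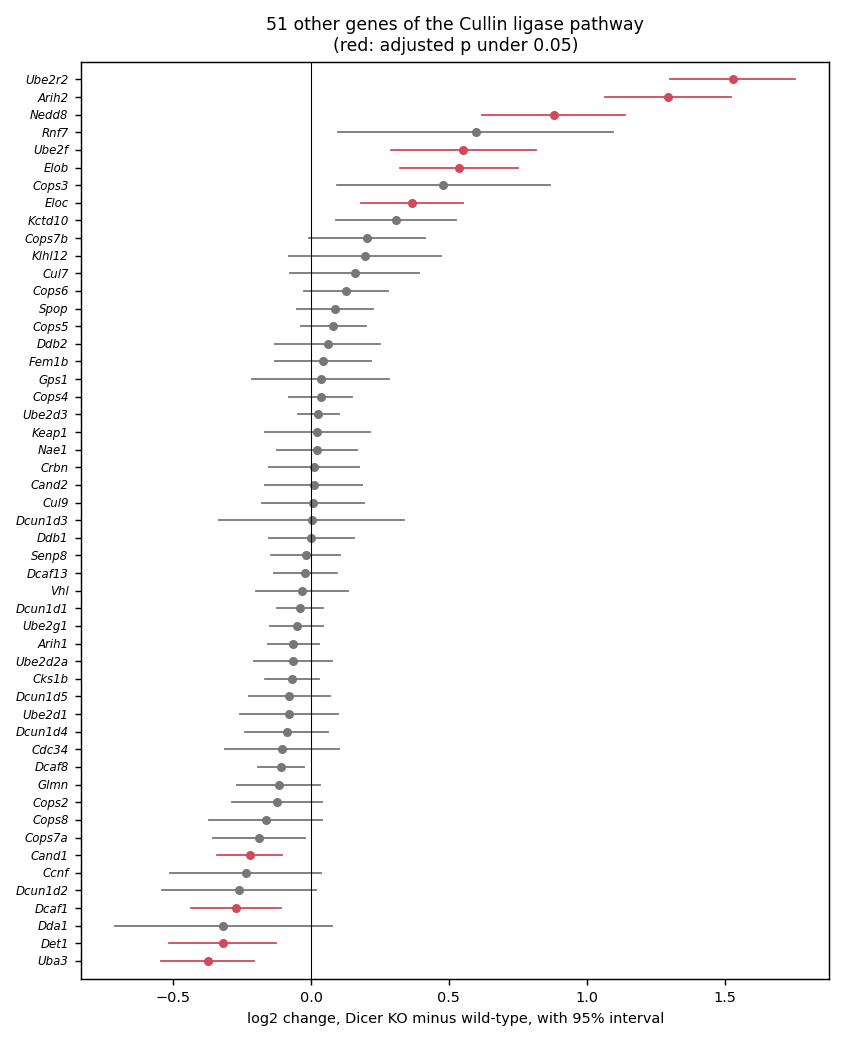
Log2 change with its 95% interval for 51 other genes of the cullin pathway in Dicer knockout minus wild-type eggs, with called genes in red. Ube2r2 (1.53), Arih2 (1.30) and Nedd8 (0.88) lie highest, and Uba3 (-0.38) lies lowest.

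Of 18 genes that encode known substrates of these ligases, 3 were called by limma in the Dicer comparison, or 16.7% beside 11.3%. Fbxo5, which encodes Emi1 and is a substrate of Btrc ligases, read 10.54, 10.41 and 10.28 in wild-type, 10.43, 10.33 and 10.51 in Dgcr8 knockout and 11.15, 11.01 and 11.27 in Dicer knockout eggs, and rose by 0.73 (limma adjusted p = 0.000451). Atf4, a transcription factor of the amino acid stress response, rose by 0.41 (limma adjusted p = 0.0135). Ctnnb1, which encodes beta-catenin, fell by 0.20 (limma adjusted p = 0.0453). These are RNA levels, and substrates of ligases are controlled as proteins, which the arrays do not measure.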

How the data were processed

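RNA of 9 samples of metaphase II eggs was read on 1 array each. The deposited values are log2 signals, 1 per probe set and array, made by the authors with GCRMA, per the submitters' processing notes (version and settings: not given in the sources used here). GCRMA corrects background by probe sequence, normalizes between arrays and summarises probes, so values are relative between arrays and a shift of all transcripts alike would not show.

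Probe sets were named by the platform annotation and the brightest single-gene probe set stood for its gene. Genes with a log2 signal of at least 4 in at least 3 of 9 arrays were tested (17324 of 19938). All 9 arrays entered a single limma fit (limma 3.58.1, statmod 1.5.0, R 4.3.3; lmFit and eBayes, robust and with a trend), two-sided, with no covariate. Called means a p under 0.05 after Benjamini-Hochberg adjustment across the 17324 genes, and "rose" and "fell" are used for called genes. Intervals are 95% and come from the same fit. Promoters of RefSeq (GRCm38.p6) were matched by Entrez gene number, for 59 of 79 genes. Those of the 6 Fbxw genes shown were aligned with biopython 1.88. The place of the probe set used for each of the 79 genes was read from the genes of 10 flanking probe sets. Of these 79, 77 matched the chromosome of their gene, Rbx1 did not, and Cul2 had no majority. Of the 59 that could be compared, 57 matched the strand of their gene.

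Described in full are the genes called in any comparison and Skp1, Cul1, Rbx1, Btrc and Skp2. Also given are the 3 uncalled genes with the largest change in the Dicer comparison and no overlap, up to 5 other pathway genes and up to 4 substrates by adjusted p, and the rodent Fbxw copies. The members and lists were chosen with earlier results of these data known. The fit was also run on simulated data of 17324 genes for the Dicer comparison, with independent normal noise. On the log2 scale 54 genes were changed by 0.5, 76 by 1 and 70 by 2. The fit recovered 50%, 93.4% and 100% of these, and called 0.035% of unchanged genes. Far more genes, 1964, were called in the real comparison, so these rates need not hold for it. With 3 arrays a genotype, the interval of a change reached a median of 0.22 to either side for the 77 tested ligase genes. Alternatives changed the floor, scaling, probe set choice, eBayes settings, arrays in the fit, a block on the replicate number and each array left out.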

Additional observations from a re-analysis of the deposited data

How the results depend on the processing

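No alternative reversed the direction of a ligase gene described as called. For Dicer knockout against wild-type, the 9 calls among ligase genes became 2 to 10 with an array left out, and 6 to 13 under the other settings. All genes called, 1964, became 1238 to 1966 with an array left out. For Dgcr8 knockout against wild-type, no ligase gene was called by limma under any alternative, and the 4 calls over all genes became 2 with only the 2 groups in the fit and 2 to 4 with an array left out. For Dicer knockout against Dgcr8 knockout, the 9 calls became 16 of 61 with a floor of 6, where 2591 of 10181 genes were called, and 14 of 77 with quantile normalization, where 2879 of 17332 were. With an array left out they were 9 to 12, and all genes called, 2321, became 1515 to 2253. The cause of these shifts was not tested. Same-numbered arrays of different genotypes did not deviate together (correlation -0.24 to 0.11, 1 of 9 pairs over 0.1, against -0.16 to 0.25 for other pairs), so the numbers were not taken as pairs. With a replicate block the limma calls among ligase genes were 8, 0 and 11 in the order above. Skp2 and Fbxo43 were not among those against wild-type (adjusted p = 0.0538 and 0.0616). An added fit on all probe sets, chosen after seeing the data, gave 6, 0 and 9. Small changes are at the edge of what 3 arrays a group can resolve.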

Other observations

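The 5 other pathway genes called by limma in Dicer knockout against wild-type eggs are named here after their values were seen. Ube2f, the Nedd8-conjugating enzyme that serves Cul5, read 6.75, 7.03 and 6.71 in wild-type and 7.35, 7.25 and 7.53 in Dicer knockout eggs, and rose by 0.55 (adjusted p = 0.0133). Eloc, the elongin C partner of Elob, read 10.75, 10.81 and 10.77 in wild-type and 11.22, 11.18 and 11.02 in Dicer knockout eggs, and rose by 0.37 (adjusted p = 0.0183). The groups did not overlap for either gene. Cand1, the exchange factor for receptors on Cul1, fell by 0.22 (adjusted p = 0.0235). Dcaf1 and Det1, which act as receptors of Cul4 ligases or assist them, fell by 0.27 and 0.32 (adjusted p = 0.0414 and 0.0405). Rnf7, the RING subunit that pairs with Cul5, was not called: it read 8.69, 8.22 and 8.32 in wild-type and 9.05, 9.40 and 8.56 in Dicer knockout eggs, a change of 0.60 with overlap between the groups (adjusted p = 0.130).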
